A study of Homo sapiens with 18 samples.

Results

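The genes of prostaglandin and leukotriene synthesis were followed in THP-1 cells, a human acute monocytic leukaemia line. The members were taken by name: the phospholipase gene PLA2G4A, the cyclooxygenase genes PTGS1 and PTGS2, the prostaglandin E synthase genes PTGES, PTGES2 and PTGES3, the prostaglandin E2 receptor gene PTGER4, and the leukotriene genes ALOX5, ALOX5AP and LTA4H. All 10 were found among the 63677 rows of the count table, 9 of them had counts, and these 9 were among the 16678 genes that passed the filter on low counts. The rule that names them uses no measured value, and they were named with earlier results of these data known. Gene positions are those of GENCODE v44 lifted to GRCh37, a later annotation of the genome build the reads were aligned to.

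The study asked what loss of TRAFD1, a zinc finger protein described as a negative regulator of innate immune signalling, changes in a monocyte-like cell at rest and under lipopolysaccharide (LPS), an outer membrane component of Gram-negative bacteria. Cells received TRAFD1 siRNA at 25 nM (KD), non-targeting siRNA at 25 nM (SCR) or no siRNA (WT), and 72 h later LPS at 10 ng/ml or medium for 4 h, which gave 6 groups of 3 libraries. WT is described in one place as untreated and in another as given the transfection mix without siRNA, so that a difference from WT cannot be assigned to the reagent or to an siRNA. One siRNA against TRAFD1 and one cell line were used, and the libraries of a group are said to be triplicates without a statement that they were separate cultures, so that p-values measure the spread between these libraries, which may be technical.

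Arachidonic acid is freed from membrane phospholipids by phospholipases A2. Cyclooxygenases turn it into prostaglandin H2, from which terminal synthases make prostaglandin E2 and other prostanoids, while 5-lipoxygenase, helped by its activating protein FLAP, starts leukotriene synthesis. Monocytes and macrophages are major sources of both families, and inducible cyclooxygenase is a classical target of LPS.

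Libraries held 8206023 to 22344279 counts. Values are CPM, that is counts per 1000000 counts with library totals scaled by the TMM method, and because each transcript gives reads from its 3′ end only, transcript length does not enter them. Fold changes, standard errors (SE) and Benjamini-Hochberg adjusted p-values are from edgeR's quasi-likelihood test over all 16678 genes, a change is called at an adjusted p under 0.05, and intervals are 95% intervals. The knockdown target was at 11.6, 5.36 and 9.01 CPM in KD against 26.8, 20.1 and 24.2 CPM in SCR without LPS (TRAFD1 log2 fold change −1.45, SE 0.23, adjusted p = 0.0277, called in 3 of 6 fits without 1 library), and at 15.8, 14.0 and 13.8 CPM against 21.9, 27.4 and 18.7 CPM with LPS (−0.65, SE 0.22, adjusted p = 0.262). The TRAFD1 call without LPS was lost without SCR replicate 1 (−1.35, adjusted p = 0.119), SCR replicate 3 (−1.44, adjusted p = 0.112) or KD replicate 2 (−1.20, adjusted p = 0.064), and in the fit to the compared groups alone (−1.41, adjusted p = 0.0847). The 5 genes set as a check of the LPS labels, TNF, IL1B, CXCL8, CXCL10 and NFKBIA, all rose with LPS in WT, SCR and KD, by log2 fold changes of 1.40 to 6.96. All 11 monocyte and myeloid markers had counts, with sums of 762 to 1014 CPM, whereas the 3 T cell markers summed to at most 0.615 CPM. The 3 KD libraries without LPS had mean correlations of 0.957 to 0.963 with their own group, below the 0.974 to 0.980 within the other groups. The mitochondrial share of counts was 3.87 to 4.86% in KD and 3.19 to 3.47% in WT and SCR without LPS, and 3.72 to 5.20% in all 9 libraries with LPS, so that it moved with LPS in WT and SCR and with the knockdown in medium, and its part in the results was not tested.

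PTGER4 (ENSG00000171522, chr5:40680017-40693837, plus strand), the gene of the EP4 receptor through which prostaglandin E2 raises cyclic AMP, rose with LPS in all 3 conditions. In medium its levels were 99.6, 108 and 82.7 CPM in WT, 131, 124 and 116 CPM in SCR, and 117, 88.3 and 98.9 CPM in KD. With LPS they were 183, 172 and 159 CPM in WT, 188, 207 and 181 CPM in SCR, and 208, 180.4 and 179 CPM in KD. Every LPS library thus lay above every library in medium, across conditions too. The increase was 1.78-fold in WT (log2 0.83, SE 0.11, adjusted p = 2.15e-05), 1.55-fold in SCR (log2 0.64, SE 0.11, adjusted p = 5.44e-04) and 1.86-fold in KD (log2 0.90, SE 0.11, adjusted p = 1.29e-05). These calls held in every alternative fit and without any single library. The increase in SCR and that in WT differed by −0.19 on the log2 scale (interval −0.53 to 0.14, adjusted p = 0.703), and that in KD and that in SCR by 0.26 (interval −0.07 to 0.60, adjusted p = 0.715).

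Without LPS all SCR libraries had more PTGER4 than all WT libraries, by 1.28-fold (log2 0.36, SE 0.11), which missed the threshold (adjusted p = 0.0937) and passed it under DESeq2 on all libraries (adjusted p = 0.0438). KD overlapped both, with a log2 difference from SCR of −0.28 (interval −0.52 to −0.05, adjusted p = 0.297). With LPS the log2 differences from WT were 0.16 in SCR (adjusted p = 0.545) and 0.14 in KD (adjusted p = 0.464). Reads were counted on the last 500 bases of each gene; in this annotation those of PTGER4 (chr5:40693338-40693837, GRCh37) lie within the gene body of TTC33 on the other strand but not within the counted end of TTC33 or of any other gene.

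PTGER4 had a called rise with LPS in all 3 conditions, and PTGS2 in WT only. The 250 bases before the starts of PTGER4 and PTGS2 are shown with the motifs found by their letters (chr5:40679767-40680016, plus strand, and chr1:186649556-186649805, minus strand, GRCh37). They were taken from RefSeq promoter entries of GRCh38.p14, which matched 9 of the 10 members, and each was found once in GRCh37. The PTGS2 stretch lies in an intron of a longer PTGS2 transcript model that starts upstream, and partly in the noncoding gene PACERR on the other strand. Capitals mark matches on either strand.
PTGER4: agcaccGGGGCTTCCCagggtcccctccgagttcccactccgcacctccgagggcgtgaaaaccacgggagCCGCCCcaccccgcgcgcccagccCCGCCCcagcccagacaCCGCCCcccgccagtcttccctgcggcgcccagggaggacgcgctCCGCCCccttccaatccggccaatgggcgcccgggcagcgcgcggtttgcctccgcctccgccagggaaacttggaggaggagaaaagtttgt
PTGS2: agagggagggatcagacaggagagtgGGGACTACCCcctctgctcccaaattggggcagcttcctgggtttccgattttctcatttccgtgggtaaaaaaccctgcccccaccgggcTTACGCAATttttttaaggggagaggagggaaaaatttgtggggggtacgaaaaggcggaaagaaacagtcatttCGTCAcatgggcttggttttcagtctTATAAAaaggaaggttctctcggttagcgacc
In PTGER4 the capitals are an NF-kB type match (GGGNNTNNCC) at −244 to −235 from the start and 4 GC boxes (GGGCGG) read on the minus strand. In PTGS2 they are, in order, an NF-kB type match at −224 to −215, a C/EBP type match (TTNNGCAAT) at −133 to −125, the core letters of a cyclic AMP response element (TGACG, minus strand) at −58 to −54 and a TATA box (TATAAA) at −32 to −27. Over the same length, 19.7% of 35116 RefSeq promoters held the NF-kB type letters, 42.6% the GC box, 2.0% the C/EBP type, 21.2% the response element core and 10.7% the TATA letters. The promoter of PTGES3, which had no called LPS response, also held 1 NF-kB type match, 1 response element core and 4 GC boxes, so these letters are not particular to the members with a called rise. A match of letters is a description and not a bound site, and binding was not measured.

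PTGS2 (ENSG00000073756, chr1:186640923-186650054, minus strand), the gene of inducible cyclooxygenase COX-2, was measured on few counts, 30 to 94 per library. In medium it stood at 2.60, 4.08 and 1.82 CPM in WT, 3.68, 3.38 and 4.46 CPM in SCR, and 4.22, 4.62 and 2.33 CPM in KD. With LPS it stood at 6.51, 7.26 and 6.16 CPM in WT, 4.16, 6.52 and 6.01 CPM in SCR, and 4.71, 3.77 and 5.94 CPM in KD. The WT libraries with and without LPS did not overlap, whereas those of SCR and of KD did. PTGS2 rose 2.41-fold with LPS in WT (log2 1.27, SE 0.30, adjusted p = 0.00614), and without WT replicate 3 in medium the change was 1.01 on the log2 scale with an adjusted p of 0.0504.

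In SCR the log2 change of PTGS2 with LPS was 0.55 (interval −0.07 to 1.17, adjusted p = 0.225) and in KD 0.36 (interval −0.26 to 0.99, adjusted p = 0.477). A smaller PTGS2 response in SCR or in KD than in WT was not shown: the differences in response were −0.72 for SCR against WT (adjusted p = 0.583) and −0.91 for KD against WT (interval −1.79 to −0.02, adjusted p = 0.309), and −0.19 for KD against SCR (adjusted p = 0.94). With LPS every KD library was below every WT library (log2 −0.47, adjusted p = 0.324), while in medium SCR and KD were 0.48 and 0.44 above WT on the log2 scale (adjusted p = 0.455 and 0.401).

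LTA4H (ENSG00000111144, chr12:96394531-96437298, minus strand), the gene of the hydrolase that makes leukotriene B4 from leukotriene A4, was the one member that fell with LPS in a called comparison. Its levels in medium were 31.7, 30.0 and 25.0 CPM in WT, 21.7, 24.4 and 19.5 CPM in SCR, and 26.9, 14.4 and 22.9 CPM in KD. With LPS they were 16.4, 19.4 and 14.9 CPM in WT, 16.0, 20.5 and 13.2 CPM in SCR, and 22.6, 17.3 and 20.5 CPM in KD. All WT libraries in medium exceeded all SCR libraries in medium and all libraries with LPS, and they overlapped KD in medium. With LPS LTA4H in WT was at 0.585 of its level in medium (log2 −0.77, SE 0.20, adjusted p = 0.0107), a call that was lost without WT replicate 6 with LPS (−0.69, adjusted p = 0.0554).

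The log2 change of LTA4H was −0.40 in SCR (interval −0.81 to 0.02, adjusted p = 0.188) and −0.09 in KD (interval −0.51 to 0.32, adjusted p = 0.809). The response in KD differed from that in WT by 0.68 (interval 0.10 to 1.26, adjusted p = 0.265), that in SCR from that in WT by 0.37 (adjusted p = 0.676), and that in KD from that in SCR by 0.30 (adjusted p = 0.815). In medium, SCR was lower than WT by a log2 difference of −0.40 (adjusted p = 0.296) and KD by −0.43 (adjusted p = 0.167), the latter called without KD replicate 1 in medium (−0.63, adjusted p = 0.0474). With LPS the differences of KD were 0.25 from WT (adjusted p = 0.467) and 0.28 from SCR (adjusted p = 0.608). The counted end of LTA4H overlaps the body of an annotated gene on the other strand, ENSG00000257878, and the strand setting of the counting is not given in the sources used here.

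Of the 9 members tested for LPS against medium, 2 rose and 1 fell in WT, against 14.3% of all genes called (7.01% higher and 7.26% lower). In SCR 1 rose, against 17.2% called (8.64% higher and 8.56% lower), and in KD 1 rose, against 11.5% called (6.41% higher and 5.05% lower). The libraries with and without LPS did not overlap for 3 members in WT, where this held for 32.6% of all genes, for 2 in SCR (37.2%) and for 4 in KD (25.5%). The median log2 change of the members was 0.09 in WT, 0.02 in SCR and 0.15 in KD, beside −0.03, −0.03 and 0.00 over all genes tested. The difference in LPS response between conditions was called for 0 of 9 members in each of the 3 pairs by edgeR, where the backgrounds were 0.234% for SCR against WT, 0% for KD against SCR and 0.36% for KD against WT. At an unadjusted p under 0.05 there were 1, 0 and 2 members, beside 9.96%, 7.64% and 15.5% of all genes. DESeq2 on all libraries called 0 members in each pair, beside 85, 3 and 275 of 16677 genes.

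**Figure D1:**
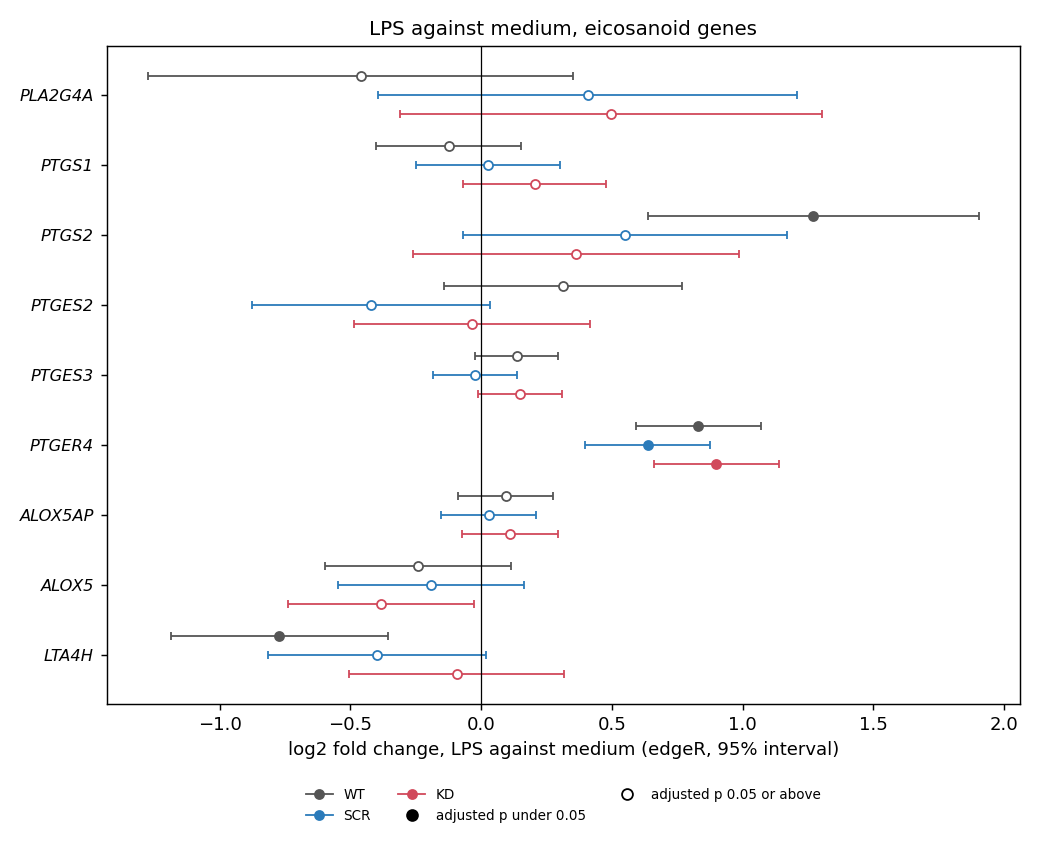
Log2 fold change of LPS against medium (horizontal axis) for the 9 members with counts, in WT (grey), SCR (blue) and KD (red); points are edgeR estimates over 3 against 3 libraries, bars are 95% intervals, and filled points have an adjusted p under 0.05. PTGER4 is filled in all 3 conditions, at 0.83, 0.64 and 0.90, and PTGS2 and LTA4H are filled in WT, at 1.27 and −0.77.

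ALOX5AP (ENSG00000132965, chr13:31287615-31338563, plus strand), the gene of FLAP, the membrane protein that presents arachidonic acid to 5-lipoxygenase, was the member with the smallest adjusted p between KD and the other conditions. In medium it was at 88.2, 84.3 and 81.9 CPM in WT, 83.3, 80.6 and 83.1 CPM in SCR, and 63.3, 66.0 and 69.1 CPM in KD. With LPS it was at 87.9, 88.1 and 95.4 CPM in WT, 89.3, 80.2 and 82.8 CPM in SCR, and 76.8, 69.1 and 68.3 CPM in KD. In both states all KD libraries lay below all WT and all SCR libraries, and WT and SCR overlapped. The mitochondrial share of counts in KD lay above that of every WT and SCR library without LPS and overlapped SCR with LPS (4.28 to 5.14% in KD and 3.72 to 5.20% in SCR), and its part in the result was not tested.

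Against WT, ALOX5AP in KD was at 0.780 of the level without LPS (log2 −0.36, SE 0.09, adjusted p = 0.0107) and at 0.789 of it with LPS (−0.34, SE 0.09, adjusted p = 0.0177). The call without LPS was kept without any single library and was lost in the fit to the compared groups alone (−0.31, adjusted p = 0.187), and the call with LPS was lost without WT replicate 6 (−0.30, adjusted p = 0.107), KD replicate 5 (−0.32, adjusted p = 0.0834) or KD replicate 6 (−0.31, adjusted p = 0.073). SCR and WT differed by −0.04 without LPS (interval −0.22 to 0.14) and by −0.11 with LPS (interval −0.29 to 0.08).

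Against SCR, the comparison in which both groups carry an siRNA, ALOX5AP was 19.7% lower in KD without LPS (log2 −0.32, interval −0.50 to −0.13) and missed the threshold (adjusted p = 0.119). It passed the threshold in 1 of 6 alternative fits, DESeq2 on all libraries (adjusted p = 0.0486), and in 0 of 6 fits without 1 library. With LPS the difference was −0.24 (interval −0.42 to −0.05, adjusted p = 0.300). Averaged over both states in the same fit, a contrast added after the values were seen, it was −0.28 (SE 0.06, adjusted p = 0.03), where 1.71% of all genes were called and 0.875% were called lower. Leaving out single libraries kept this average between −0.30 and −0.25 with adjusted p from 0.0323 to 0.0863, and the call was lost in 8 of 12 such fits, those without SCR replicate 1, 2 or 3 in medium, SCR replicate 4 or 6 with LPS, or KD replicate 4, 5 or 6 with LPS. ALOX5AP showed no called LPS response, with log2 changes of 0.09 in WT (adjusted p = 0.546) and 0.11 in KD (adjusted p = 0.461), and the response in KD differed from that in SCR by 0.08 (adjusted p = 0.899).

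Some myeloid markers also differed between KD and WT. Without LPS, CD14, CD68 and FCER1G, 3 of the 10 markers tested, were higher in KD than in WT (log2 0.72, 0.95 and 0.35, adjusted p = 0.0232, 0.015 and 0.0218), where 11.7% of all genes were called. Of the 7 that were not called, 4 had estimates above 0 and 3 below, and the smallest adjusted p with LPS was 0.16 (SPI1). The list summed to 906 to 993 CPM in KD and 762 to 837 CPM in WT (935 to 1014 and 846 to 900 CPM with LPS). FCER1G and TYROBP, with means of 361 and 270 CPM over all libraries, weigh most in these sums. Between KD and SCR the smallest adjusted p of the 10 was 0.297 without LPS (TYROBP) and 0.201 with LPS (SPI1). Fewer cells of a kind and less RNA per cell cannot be told apart in these bulk samples, and the part of the markers in the result was not tested.

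The bases before the start of ALOX5AP (chr13:31287372-31287614, plus strand, GRCh37) are shown up to its first annotated exon, with letters of the PU.1 type (GAGGAA, either strand), found in 23.6% of the promoters, in capitals. PU.1 is a transcription factor of the myeloid lineage.
ALOX5AP: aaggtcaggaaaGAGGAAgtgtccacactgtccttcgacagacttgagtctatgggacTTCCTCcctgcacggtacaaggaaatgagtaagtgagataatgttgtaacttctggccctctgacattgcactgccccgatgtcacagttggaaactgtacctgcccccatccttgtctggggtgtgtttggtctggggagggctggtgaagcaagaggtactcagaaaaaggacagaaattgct
The letters occur at −238 to −233 and, on the minus strand, at −192 to −187 from the RefSeq start. Binding was not measured here.

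**Figure D2:**
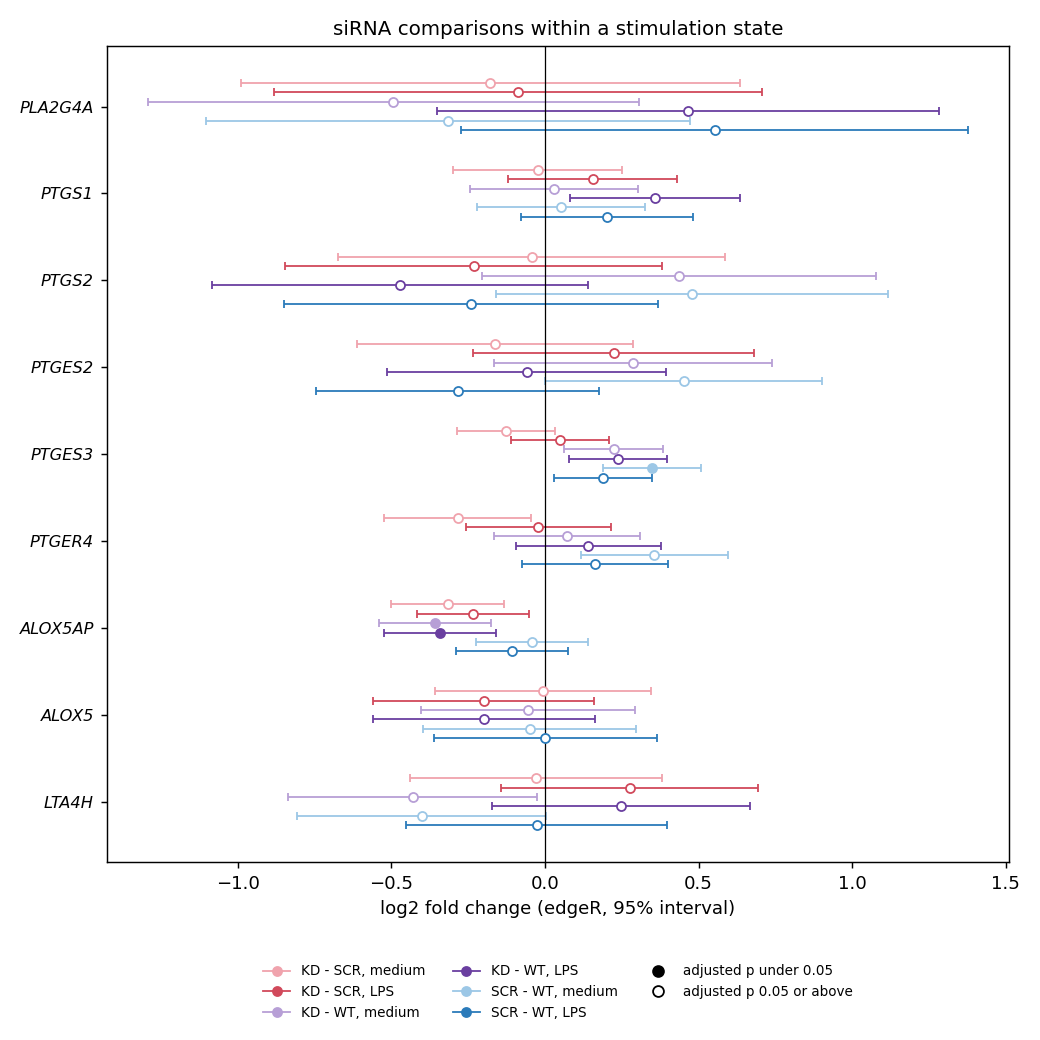
Log2 fold change between conditions (horizontal axis) for the 9 members with counts, for KD against SCR (reds), KD against WT (purples) and SCR against WT (blues), each without LPS (light) and with LPS (dark); points are edgeR estimates over 3 against 3 libraries, bars are 95% intervals, and filled points have an adjusted p under 0.05. The filled points are ALOX5AP in KD against WT, at −0.36 and −0.34, and PTGES3 in SCR against WT without LPS, at 0.35.

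PTGES3 (ENSG00000110958, chr12:57057125-57082192, minus strand), the gene of p23, an HSP90 co-chaperone with cytosolic prostaglandin E synthase activity, was lowest in WT. Without LPS it was at 361, 372 and 320.5 CPM in WT, 448, 439 and 455 CPM in SCR, and 421, 388 and 419.9 CPM in KD. With LPS it was at 383, 414 and 359 CPM in WT, 436, 452 and 431 CPM in SCR, and 449, 455 and 459 CPM in KD. In either state no WT library reached any SCR or KD library.

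PTGES3 was 1.27-fold higher in SCR than in WT without LPS (log2 0.35, SE 0.08, adjusted p = 0.0151), a call lost without WT replicate 3 (0.29, adjusted p = 0.0958), SCR replicate 1 (0.35, adjusted p = 0.0539) or SCR replicate 3 (0.34, adjusted p = 0.0592) in medium. The other differences from WT had the same sign and missed the threshold: 0.19 for SCR with LPS (adjusted p = 0.286), 0.22 for KD without LPS (adjusted p = 0.0642) and 0.24 for KD with LPS (adjusted p = 0.0515). KD and SCR differed by −0.13 without LPS (interval −0.29 to 0.03) and 0.05 with LPS (interval −0.11 to 0.21). Of the 10 myeloid markers tested, CD14 and FCER1G were also higher in SCR than in WT without LPS (log2 1.14 and 0.45, adjusted p = 0.00311 and 0.0112), where 3.23% of all genes were called (1.78% higher). The other markers are not given for this comparison. The myeloid list, in which FCER1G and TYROBP weigh most, summed to 880 to 987 CPM in SCR and 762 to 837 CPM in WT. The part of the markers in the PTGES3 result was not tested. Of 5 pseudogenes of PTGES3, 3 had counts, 527 in all beside 102338 for the gene, so reads placed on copies were few although copies could also lend reads to the gene.

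Of the 9 members tested, 0 were called between KD and SCR by edgeR in either state, where 0.066% of all genes were called without LPS and 0% with LPS. At an unadjusted p under 0.05 there were 2 members without LPS, ALOX5AP and PTGER4 (12.6% of all genes), and 1 with LPS, ALOX5AP (11.8%). DESeq2 on all libraries called 1 member without LPS, ALOX5AP, beside 242 of 16677 genes. With LPS it called 0 members, beside 142 genes. Between SCR and WT, 1 of 9 was called, higher, without LPS against 3.23% of all genes (1.78% higher), and 0 with LPS against 0.114%. With LPS 1 member had an unadjusted p under 0.05, beside 2285 of 16678 genes. DESeq2 on all libraries called 0 members there, beside 196 of 16677 genes. Between KD and WT, 1 of 9 was called, lower, without LPS against 11.7% of all genes (5.85% lower), and 1, lower, with LPS against 10.8% (4.55% lower). The libraries of KD and SCR did not overlap for 2 members without LPS, where this held for 15.1% of all genes, and for 2 with LPS (21.5%). Those of SCR and WT did not overlap for 4 members without LPS (22.6%) and 1 with LPS (22.8%), and those of KD and WT for 2 without LPS (24.3%) and 4 with LPS (35%). The members' median log2 difference between KD and SCR was −0.13 without LPS and −0.02 with LPS, beside −0.01 and 0.02 over all genes tested. These comparisons share their SCR or WT libraries.

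The other cyclooxygenase and synthase genes showed no called change. PTGS1 (ENSG00000095303, chr9:125132809-125157982, plus strand), the gene of the constitutive cyclooxygenase COX-1, ranged from 20.05 to 29.1 CPM over the 18 libraries, and its log2 LPS changes were −0.12 in WT and 0.20 in KD. With LPS all KD libraries (24.9, 26.0 and 28.7 CPM) exceeded all WT libraries (21.6, 20.4 and 20.05 CPM) by a log2 difference of 0.36 (adjusted p = 0.0882). PTGES (ENSG00000148344, chr9:132500610-132515321, minus strand), the gene of the inducible microsomal prostaglandin E synthase, had 0 counts in all 18 libraries, which with a floor of 3 counts allows up to 0.133 to 0.378 CPM, for counting error only; transcripts that end outside the counted window would not be seen.

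PTGES2 (ENSG00000148334, chr9:130882972-130890741, minus strand), which encodes a membrane-associated prostaglandin E synthase, ranged from 11.3 to 26.2 CPM, the lowest being KD replicate 1 in medium. Without LPS all SCR libraries (22.3, 20.2 and 26.1 CPM) were above all WT libraries (14.4, 19.0 and 17.0 CPM), a log2 difference of 0.45 (adjusted p = 0.289), and with LPS the difference was −0.28 (adjusted p = 0.594). LPS changed PTGES2 by 0.31 in WT (adjusted p = 0.399) and −0.42 in SCR (adjusted p = 0.203) on the log2 scale, responses that differed by −0.74 (adjusted p = 0.465). KD and WT in medium differed by 0.29 (adjusted p = 0.437), and by 0.58 with an adjusted p of 0.0241 without KD replicate 1.

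The start of both branches was represented by PLA2G4A (ENSG00000116711, chr1:186798081-186958113, plus strand), the gene of cytosolic phospholipase A2 alpha, on 13 to 60 counts per library, or 1.07 to 4.26 CPM. On the log2 scale LPS changed it by −0.46 in WT (adjusted p = 0.499), 0.41 in SCR (adjusted p = 0.525) and 0.50 in KD (adjusted p = 0.448), each with an interval that included 0, so that no direction was shown. The groups with and without LPS overlapped. ALOX5 (ENSG00000012779, chr10:45869624-45941567, plus strand), the gene of 5-lipoxygenase, ranged from 8.68 to 15.3 CPM, and its LPS changes on the log2 scale were −0.24 (WT), −0.19 (SCR) and −0.38 (KD). In KD its libraries with LPS (9.51, 10.2 and 8.68 CPM) lay below those in medium (11.5, 14.2 and 11.5 CPM), at an adjusted p of 0.156, and with LPS they lay below those of SCR by a log2 difference of −0.20 (adjusted p = 0.671). The counted end of ALOX5 overlaps the body of ENSG00000231964 on the other strand.

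**Figure D3:**
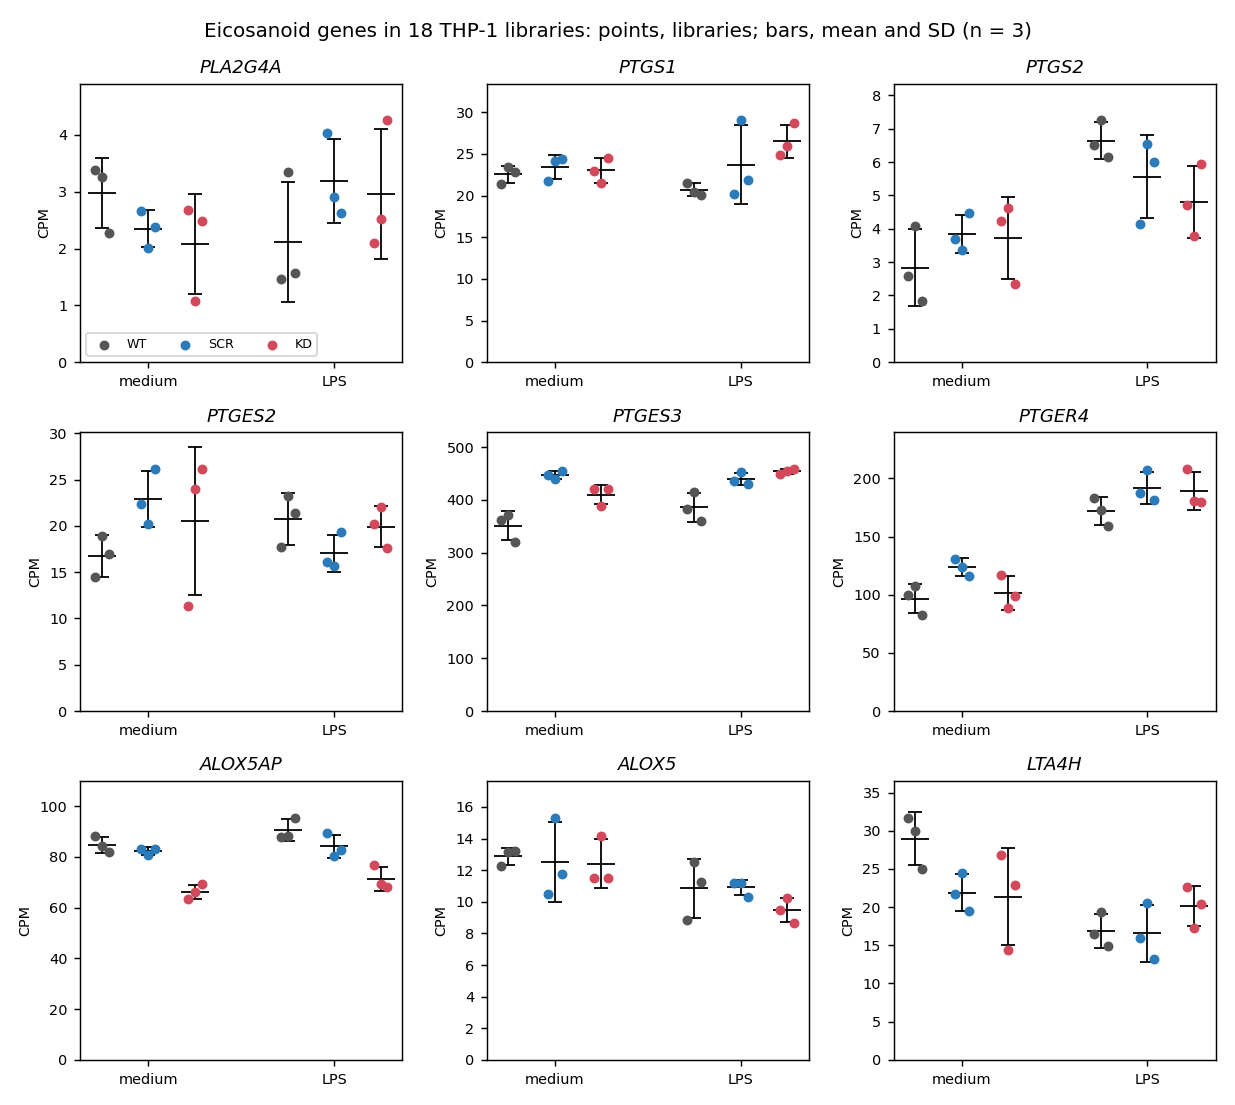
CPM (vertical axes, from 0, each with its own scale) of the 9 members with counts in the 6 groups, without LPS (left of each panel) and with LPS (right), for WT (grey), SCR (blue) and KD (red); points are libraries, and bars are the mean and SD of 3. PTGER4 lies between 82.7 and 131 CPM in medium and between 159 and 208 CPM with LPS, and ALOX5AP in KD, at 63.3 to 76.8 CPM, lies below WT and SCR in both states.

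The genes whose log2 CPM ran closest to a member's over the 18 libraries were, by Pearson's r, SLC30A1 (0.966), ELOA (0.965) and ETS2 (0.963) for PTGER4, and TNFSF13B (0.919), TARDBP (0.907) and EIF2B5 (0.897) for ALOX5AP. For PTGS2 they were ENSG00000261005 (0.838), CYLD (0.828) and MAPK6P5 (0.826), and for ALOX5 they were ENSG00000235117 (0.834), FRY-AS1 (0.812) and CENPH (0.794). Each was the highest of 16677 genes compared over libraries that share the LPS and siRNA groups and the depth, so the values are a description.

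Around the members, 77 further genes of the pathway were listed, of which 67 had counts and 47 were tested. With LPS 8 rose and 5 fell in WT, 6 rose and 7 fell in SCR, and 7 rose and 3 fell in KD, where 14.3%, 17.2% and 11.5% of all genes were called. Their median log2 change was −0.09 in WT, −0.14 in SCR and −0.01 in KD, against −0.03, −0.03 and 0.00 over all genes tested. In the group that releases and handles arachidonate, 3 of 16 tested rose in WT, where 7.01% of all genes were called higher. ACSL1, which activates long-chain fatty acids to their CoA esters, rose 3.45-fold in WT, 2.68-fold in SCR and 3.28-fold in KD, and its means went from 29.3, 48.4 and 48.5 CPM to 101, 130 and 159 CPM. MGLL, the lipase that frees arachidonate from 2-arachidonoylglycerol, rose 3.43-fold, 2.91-fold and 2.93-fold in WT, SCR and KD. PLA2G4C, a calcium-independent cytosolic phospholipase A2, rose 1.90-fold in WT (adjusted p = 2.6e-05) and had log2 changes of 0.23 in SCR and 0.08 in KD (adjusted p = 0.23 and 0.725). Its response in KD was smaller than in WT (difference −0.84, SE 0.18, adjusted p = 0.0466, called in 3 of 12 fits without 1 library). It was the one called difference in response among the 47.

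The members of this group that fell, named after their values were seen, were PLA2G15 (log2 −0.80), PNPLA2 (−0.49) and LPCAT3 (−0.49) in WT, PLA2G15 (−0.46), PNPLA2 (−0.42), ACSL3 (−0.30) and DAGLA (−1.16) in SCR, and PNPLA2 (−0.58) and ACSL3 (−0.29) in KD. LPCAT3 places arachidonate into phospholipids and DAGLA makes 2-arachidonoylglycerol. PLA2G7, the secreted hydrolase of platelet-activating factor, had 0 counts in the SCR libraries without LPS and 5 to 22 with LPS, and was called higher there.

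Among prostanoid receptors, 2 of 6 tested rose in WT, 2 in SCR and 1 in KD, where 7.01%, 8.64% and 6.41% of all genes were called higher. PTGIR, the prostacyclin receptor, which like EP4 signals through cyclic AMP, rose 3.47-fold in WT (6.66 to 23.2 CPM, means of 3), 2.05-fold in SCR (9.74 to 20.04 CPM) and 2.11-fold in KD (7.60 to 16.1 CPM). PTGER2, the EP2 receptor, had 0 counts in every WT and SCR library in medium and 0 to 13 in WT and 3 to 9 in SCR with LPS, and passed the threshold in both on these few counts. Of the 12 tested genes of terminal synthesis, transport and breakdown, AKR1B1, an aldo-keto reductase with prostaglandin F synthase activity, rose in WT (log2 0.47, adjusted p = 0.0129), and PTGR3, a prostaglandin reductase, fell in SCR (−0.62, adjusted p = 0.00624).

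In the leukotriene branch, ABCC1, the transporter that exports leukotriene C4, rose with LPS 1.85-fold in WT, 2.00-fold in SCR and 2.72-fold in KD. MGST1, a microsomal glutathione transferase, and COTL1, an actin-binding protein that binds 5-lipoxygenase, rose in KD (log2 1.02 and 0.33, adjusted p = 0.0234 and 0.0349). EPHX2, the soluble epoxide hydrolase, fell in SCR (−0.66) and MGST2 fell in WT (−0.40). CYSLTR1, a receptor of cysteinyl leukotrienes, fell to 0.425 of its level in WT (log2 −1.23, adjusted p = 8.68e-05) and to 0.677 in SCR (−0.56, adjusted p = 0.0461). LTB4R, the high-affinity receptor of leukotriene B4, fell in KD to 0.583 of its level (−0.78, adjusted p = 0.00375). CMKLR1, a receptor of chemerin and of the lipid mediator resolvin E1, went from 0 to 7 counts per library to 20 to 27 in WT and from 0 to 1 counts to 21 to 41 in KD.

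Without any single library ACSL1, MGLL and PTGIR kept their LPS calls in all 3 conditions, as did LTB4R in KD and PLA2G4C and CYSLTR1 in WT. PTGR3 and DAGLA in SCR and PLA2G15 in WT kept theirs too. In the 6 fits that leave out 1 library each, AKR1B1 in WT kept its call in 2, ABCC1 in 3 in WT and 5 in SCR, MGST1 and COTL1 in KD in 2 each, and CYSLTR1 in SCR in 1. Of the genes that fell, PNPLA2 kept its call in 3 such fits in WT, 0 in SCR and 5 in KD, LPCAT3 in WT in 2, MGST2 in WT in 0, and PLA2G15, ACSL3 and EPHX2 in SCR and ACSL3 in KD in 1 each. The effect in one condition and its absence in another were not shown to differ for these genes, except for PLA2G4C between KD and WT. That difference kept its call in 3 of 12 fits without 1 library and in 4 of 5 other settings.

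**Figure D4:**
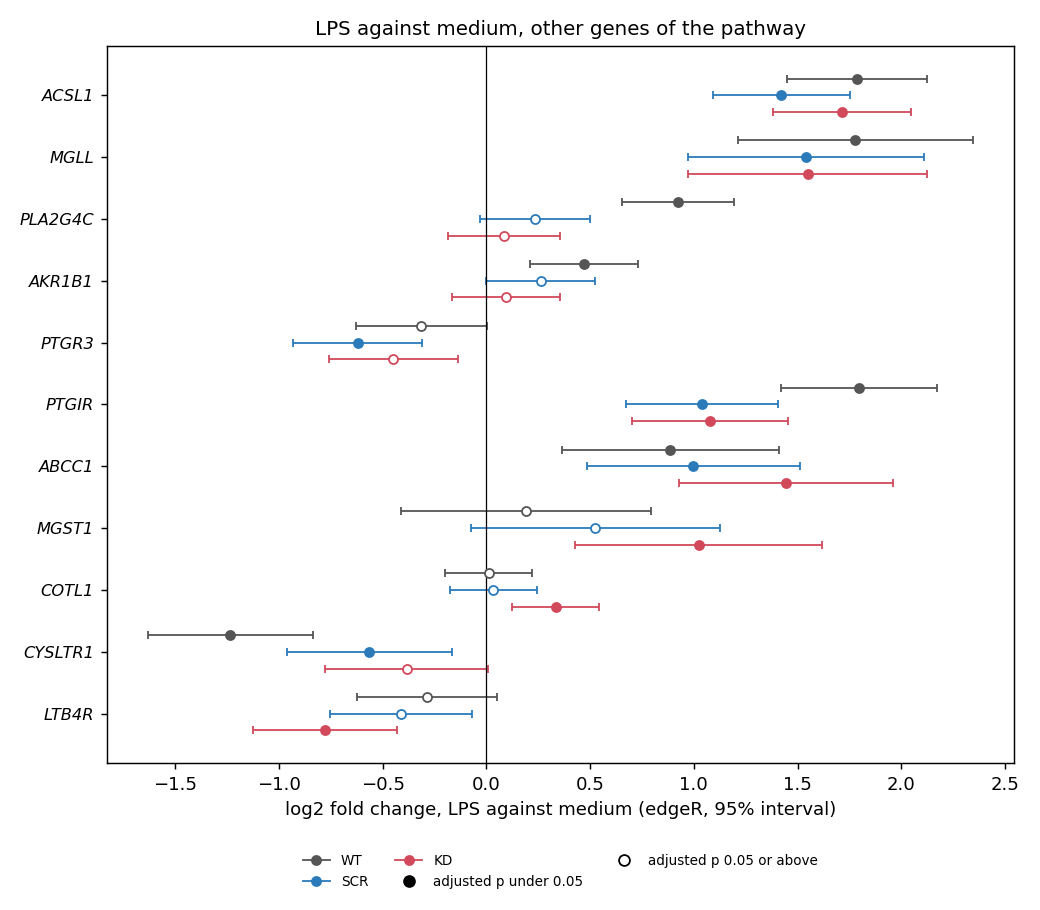
Log2 fold change of LPS against medium (horizontal axis) for 11 of the 47 other genes of the pathway that were tested, in WT (grey), SCR (blue) and KD (red). The genes shown are up to 3 per list with the smallest adjusted p among those called with LPS, and with enough counts for a fold change. That each has a filled point follows from this choice. Points are edgeR estimates over 3 against 3 libraries, bars are 95% intervals, and filled points have an adjusted p under 0.05. ACSL1, MGLL, PTGIR and ABCC1 are filled on the right in all 3 conditions, and CYSLTR1 is filled on the left in WT and SCR.

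Of the 47 other genes, 0 were called between KD and SCR in either state by edgeR or by DESeq2 on all libraries. By edgeR 0.066% of all genes were called without LPS and 0% with LPS. DESeq2 on all libraries called 242 of 16677 genes without LPS and 142 with LPS. At an unadjusted edgeR p under 0.05 there were 6 without LPS and 5 with LPS, beside 12.6% and 11.8% of all genes. Between SCR and WT without LPS, PLA2G4C (log2 0.59, adjusted p = 0.0144) and ACSL1 (0.73, adjusted p = 0.0153) were higher in SCR, where 3.23% of all genes were called (1.78% higher). Between KD and WT without LPS, 2 were higher, ACSL1 (0.73) and PTGDS (1.37), and 4 were lower, LPCAT3 (−0.58), TBXA2R (−0.98), MGST2 (−0.42) and CYSLTR1 (−0.60). In that comparison 11.7% of all genes were called (5.85% lower). With LPS 4 were higher in KD than in WT, ACSL1 (0.66), ANXA1 (0.97), MGST1 (1.33) and MGST3 (0.80), and 3 were lower, PLA2G4C (−0.50), PTGFR (−1.69, on 4 to 28 counts per library) and LTB4R (−0.79). Of all genes 10.8% were called there (4.55% lower). Without any single library ACSL1 and PTGDS kept their calls in KD against WT without LPS, and there LPCAT3 kept its call in 5 of 6 fits, TBXA2R in 3, and MGST2 and CYSLTR1 in 2 each. The MGST2 and CYSLTR1 calls were both lost without KD replicate 2 or KD replicate 3 in medium, and that of TBXA2R without KD replicate 1. In KD against WT with LPS, MGST1, ANXA1 and LTB4R kept their calls in 5 of 6 fits, ACSL1 and PLA2G4C in 4, and PTGFR and MGST3 in 1 each. In SCR against WT without LPS, PLA2G4C kept its call in 4 of 6 fits and ACSL1 in 3. PTGDS encodes a prostaglandin D synthase, TBXA2R the thromboxane receptor, PTGFR the prostaglandin F receptor and ANXA1 a protein known to restrain phospholipase A2. The genes called against WT that were not named for LPS were named after their values were seen.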

How the data were processed

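RNA of 18 THP-1 samples was measured by QuantSeq 3′ sequencing. The authors removed low-quality, adaptor and poly-A sequence, aligned reads with HISAT to the human GRCh37 genome, counted them with featureCounts on the last 500 bases of each Ensembl gene and deposited 1 table of raw counts. The strand setting of the counting is not given in the sources used here.

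Counts were tested with edgeR 4.0.16 in R 4.3.3: TMM scaling, the filterByExpr filter by group (16678 of 63677 genes kept), 1 quasi-likelihood fit to all 18 libraries, 12 contrasts, Benjamini-Hochberg adjustment over all genes tested and a threshold of 0.05. CPM used TMM-scaled library totals, and correlations of libraries and genes used log2 CPM with a prior count of 2. Leaving out libraries, RLE size factors, no filter, DESeq2 1.42.0, fits to the compared groups alone and a replicate block were tried as alternatives. Contrasts averaged over both states were added after the data were seen.

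The scripts were tested on simulated counts. With 200 changed genes among 16341, the comparison of LPS with medium in WT recovered 54% of 2-fold increases, 12% of 1.5-fold increases and 42% and 16% of decreases of the same sizes, and 7 of 69 calls were false. With 16312 genes, KD against SCR without LPS recovered 58%, 24%, 48% and 24%, and 4 of 81 calls were false. All unchanged genes had the same mean in every group, whereas 14.3% of genes were called for LPS in WT in the data. The recovery shares therefore check the scripts and do not give the power of the LPS comparison.

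Replicate numbers were checked as pairs by the correlation of same-numbered libraries' deviations from their group means. Only for SCR and WT with LPS was it over 0.1 in all 3 pairs (0.261, 0.163 and 0.253). There the block gave 135 called genes in place of 19, and 0 members in both.

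Named genes were all members, TRAFD1, 5 LPS check genes, up to 3 genes per pathway list with the smallest adjusted p in an LPS comparison, every listed gene called between KD and SCR or in a difference of LPS response, and the 3 genes most like a member. Genes outside this rule are said to be named after their values were seen. The members and lists were chosen with earlier results of these data known. Promoters were read from RefSeq (GRCh38.p14) and placed on GRCh37. Protein sequences were not used here. Intervals and floors that rest on counts cover counting error only.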

Additional observations from a re-analysis of the deposited data

Results flagged for a closer look

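PLA2G4C, the calcium-independent cytosolic phospholipase A2, differed between conditions in its LPS response. Its levels were 23.1 ± 3.46 CPM (SD, n = 3) in WT, 34.9 ± 2.56 in SCR and 29.1 ± 1.29 in KD without LPS, and 43.9 ± 7.35, 41.0 ± 1.52 and 30.9 ± 1.87 with LPS. The response in KD differed from that in WT by −0.84 on the log2 scale (SE 0.18, adjusted p = 0.0466, edgeR). Leaving out single libraries gave differences of −0.95 to −0.70 with adjusted p from 0.016 to 0.172, and 3 of 12 such fits kept the call. Both siRNA groups started above WT in medium.

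Among the genes that check the LPS labels, the responses of SCR were smaller than those of WT for TNF (difference −1.42, SE 0.21, adjusted p = 0.0021), CXCL10 (−2.07, SE 0.35, adjusted p = 0.0074) and NFKBIA (−0.63, SE 0.12, adjusted p = 0.0329, called in 3 of 12 fits without 1 library), and that of KD was smaller than that of WT for TNF (−1.76, SE 0.21, adjusted p = 1.01e-04), all from edgeR. TNF stood at 12.7, 18.7 and 16.2 CPM in WT in medium, and at 35.1 to 47.8 CPM in SCR and 34.9 to 49.5 CPM in KD. With LPS it stood at 132, 153 and 137 CPM in WT, 129 to 157 CPM in SCR and 103 to 123 CPM in KD. Whether the higher TNF of both siRNA groups in medium is related to the PTGER4, PTGES3 and PLA2G4C levels there was not tested.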

How the results depend on the processing

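The number of members called between KD and SCR was 0 without LPS and 0 with LPS. It became 1, ALOX5AP, without LPS under DESeq2 on all libraries and 1, ALOX5AP, in the average over both states. Of all genes, 11 of 16678 were called without LPS, 242 of 16677 under DESeq2 and 286 of 16678 in the average. Between SCR and WT without LPS the number of members called was 1. It was 2 under DESeq2 on all libraries or with the replicate block (PTGER4 added, adjusted p = 0.0416), and 0 in the fit to the compared groups alone. All genes called there were 538 as reported, 929 under DESeq2, 934 with the block and 409 of 15702 in the compared groups alone. With LPS 0 members were called, beside 19 genes, and 1 in the average over both states, beside 763 of 16678 genes. Between KD and WT without LPS the number of members called was 1, and 2 under RLE size factors, DESeq2 on all libraries or the average. It was 0 without the filter on low counts, in the fit to the compared groups alone and under DESeq2 on the compared groups. All genes called there were 1951 as reported, 1890 under RLE size factors, 2294 under DESeq2 on all libraries and 3557 in the average. They were 2031 of 34092 without the filter, 280 of 15493 in the compared groups alone and 836 of 29214 under DESeq2 on them. With LPS the number of members called was 1, and 0 without the filter. It was 2 under DESeq2 on all libraries, with the replicate block, in the fit to the compared groups alone, under DESeq2 on the compared groups and in the average. All genes called there were 1808 as reported and 2128 of 34092 without the filter. They were 2299 under DESeq2 on all libraries, 2566 with the block and 3557 in the average. The compared groups alone gave 3235 of 14990, and DESeq2 on them 2949 of 29164. The gene added to KD against WT under DESeq2 on all libraries was PTGES3. Without single libraries the counts of members ranged from 0 to 1 for SCR against WT without LPS, 1 to 3 and 0 to 2 for KD against WT without and with LPS, and 2 to 3 for LPS in WT. The counts of all genes called ranged from 193 to 510, 962 to 1934, 376 to 1428 and 1682 to 2095 in these comparisons, of 17181 to 17305 tested. Without the filter 34092 genes were tested; the cause of the other changes was not tested.

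The change of LTA4H with LPS in KD, which was not called, ranged from −0.31 to 0.11 without single libraries and was above 0 in 2 of these fits. The LPS calls of PTGER4 held under every setting, and those of PTGS2 and LTA4H in WT under every setting that kept all libraries. Whether same-numbered libraries are pairs is not known. Their deviations from the group means correlated weakly between SCR and WT with LPS (0.163 to 0.261), and at 0.304 for replicate 1 of KD and WT without LPS. The block moved all-gene counts from 1808 to 2566 for KD against WT with LPS and from 0 to 85 for KD against SCR with LPS.

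Over settings that kept all libraries, all-gene counts ran from 0 to 320 (11 as reported) and 0 to 619 (0) for KD against SCR without and with LPS, 409 to 934 (538) and 19 to 593 (19) for SCR against WT, and 280 to 2423 (1951) and 1808 to 3235 (1808) for KD against WT. For LPS they ran from 2296 to 2699 (2380) in WT, 2834 to 3372 (2869) in SCR and 847 to 2290 (1912) in KD. For the differences of response they ran from 37 to 241 (39), 0 to 132 (0) and 23 to 729 (60) for SCR against WT, KD against SCR and KD against WT. Under RLE size factors 7 genes were higher and 7 lower in KD than in SCR without LPS, in place of 4 and 7. The estimates of PTGS2 and PLA2G4A rest on 30 to 94 and 13 to 60 counts per library.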
